A study of Homo sapiens with 12 samples.

Results

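Canonical target genes of the transcription factor p53 were followed through the acquisition of gemcitabine (GEM) resistance in 2 pancreatic cancer cell lines. The 10 genes were chosen by name as canonical targets (MDM2, CDKN1A, BTG2, GADD45A, FAS, TNFRSF10B, TP53INP1, ZMAT3, SESN1 and GDF15), and each matched 1 of the 58302 genes measured. Expression was given as FPKM, the fragments per kilobase of exon scaled to the mapped fragments of the library, in 12 libraries of 4 cell lines with 3 libraries each: BxPC-3 and CFPAC-1, the parental epithelial lines labelled sensitive, and BxPC-3-GR and CFPAC-1-GR, the resistant lines raised from them by stepwise GEM exposure. GEM is a cytidine analogue that blocks DNA synthesis. BxPC-3-GR is labelled mesenchymal in morphology and CFPAC-1-GR epithelial. Each resistant line is a single derived subline, so a value that belongs to resistance and one that belongs to that subline cannot be told apart. Nothing in the sources used here says that the 3 libraries of a line came from separate cultures or whether GEM was in the medium at harvest, so the p-values measure only the spread between these libraries. The labels give RPMI as the medium of all lines, whereas the methods give IMDM for CFPAC-1.

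p53 is a transcription factor that is stabilised by DNA damage and other stresses and then switches on genes for cell cycle arrest, repair and cell death. MDM2 is both its target and the ubiquitin ligase that degrades it, which closes a feedback loop. Many of the targets also respond to other factors, among them p63, p73, FOXO3, SP1 and the stress factor ATF4. The lines were set out as p53-mutant when the genes were chosen. The levels of the targets are therefore not read here as a measure of p53 activity, which was not tested.

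The p53 response element is a pair of joined half-sites, each of 10 bases around a core of the form CNNG. Promoter windows of 300 bases, from 250 before to 50 after a start site in the RefSeq annotation of GRCh38.p14, were held for 7 of the 10 genes, and those of GADD45A, TNFRSF10B and TP53INP1 were not used here. A full site of 20 bases with all core bases and at most 3 departures from the consensus, which reads the same on both strands, was found in 4 of the 7 genes and in 1.37% of 27305 genes with such windows. Genes differ in their number of windows, so these shares are not on an equal footing. MDM2 had 4 windows, FAS and SESN1 3 each, ZMAT3 2, and GDF15, CDKN1A and BTG2 1 each. Over all genes, 1.12% of 35116 windows held such a site. A match describes the letters only and no binding was measured. The 4 sites are printed because they belong to targets that are described one by one below; capitals mark the core C and G of each half-site.
MDM2 (chr12:68808923-68808942, plus strand): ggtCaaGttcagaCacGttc
FAS (chr10:88991309-88991328, plus strand): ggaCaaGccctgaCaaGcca
SESN1 (chr6:109009018-109009037, minus strand): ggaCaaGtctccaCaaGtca
GDF15 (chr19:18386186-18386205, plus strand): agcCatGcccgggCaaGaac
The MDM2 and FAS sites departed from the consensus at 2 positions and the SESN1 and GDF15 sites at 3. In GENCODE 29 the MDM2 and SESN1 sites lay inside the gene and outside every exon of it, that is, in introns. The FAS site lay in the first exon of 2 non-coding FAS transcripts and in the intron of others, and the GDF15 site spanned the end of the 5' untranslated region and the start of the coding sequence. No such site was found in the windows of CDKN1A, BTG2 and ZMAT3, which says only that these letters are not within these windows. The MDM2 site belongs to the internal promoter of that gene, which is known as its p53-responsive one. The 200 bases in front of it and around it (chr12:68808767-68808966, plus strand, intronic, GC content 61.5%) are printed with the site in capitals.
MDM2 internal promoter: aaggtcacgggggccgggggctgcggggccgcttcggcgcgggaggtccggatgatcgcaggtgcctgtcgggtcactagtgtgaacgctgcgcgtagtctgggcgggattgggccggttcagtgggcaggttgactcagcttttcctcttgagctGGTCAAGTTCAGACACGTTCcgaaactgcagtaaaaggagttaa

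The libraries held between 12600000 and 25200000 mapped fragments, as implied by the steps of low FPKM values, and Spearman correlations between libraries of a line were at least 0.917. All 6 epithelial markers reached 1 FPKM in all 4 lines, whereas the blood markers summed to at most 4.59 FPKM the endothelial ones to at most 0.901 FPKM and the fibroblast ones to at most 4.00 FPKM. The mesenchymal marker VIM ranged from 0.686 to 0.891 FPKM in BxPC-3-GR, the line labelled mesenchymal, and from 5.51 to 7.25 FPKM in BxPC-3. It ranged from 105.9 to 141 FPKM in CFPAC-1 and from 51.2 to 68.7 FPKM in CFPAC-1-GR, both labelled epithelial. The 3 CFPAC-1 libraries stood apart from the other 9 in base composition. The Spearman correlation between a library's deviation from the gene mean and the GC content of the gene was 0.677 to 0.695 in CFPAC-1 and between -0.468 and -0.314 in the other lines. Every CFPAC-1 library showed it, so this property and the parental state of CFPAC-1 cannot be told apart. Most comparisons with CFPAC-1 are given below with and without a correction for GC content and exon length.

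CDKN1A and TNFRSF10B were the most abundant of the 10 transcripts per kilobase, and TP53INP1 was the least abundant in 3 of the 4 lines. In BxPC-3 the means ran from 24.8 ± 1.56 FPKM (SD, n = 3) for CDKN1A to 0.176 ± 0.0194 FPKM for TP53INP1. CDKN1A stood above 88.5% and TNFRSF10B above 82.7% of the 11522 genes that reached a mean of 1 FPKM in BxPC-3. In CFPAC-1, 5 of the 10 genes (MDM2, FAS, ZMAT3, SESN1 and TP53INP1) had means under 1 FPKM, against 1 (TP53INP1) in BxPC-3, 1 (FAS) in BxPC-3-GR and 2 (SESN1 and TP53INP1) in CFPAC-1-GR.

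**Figure D1:**
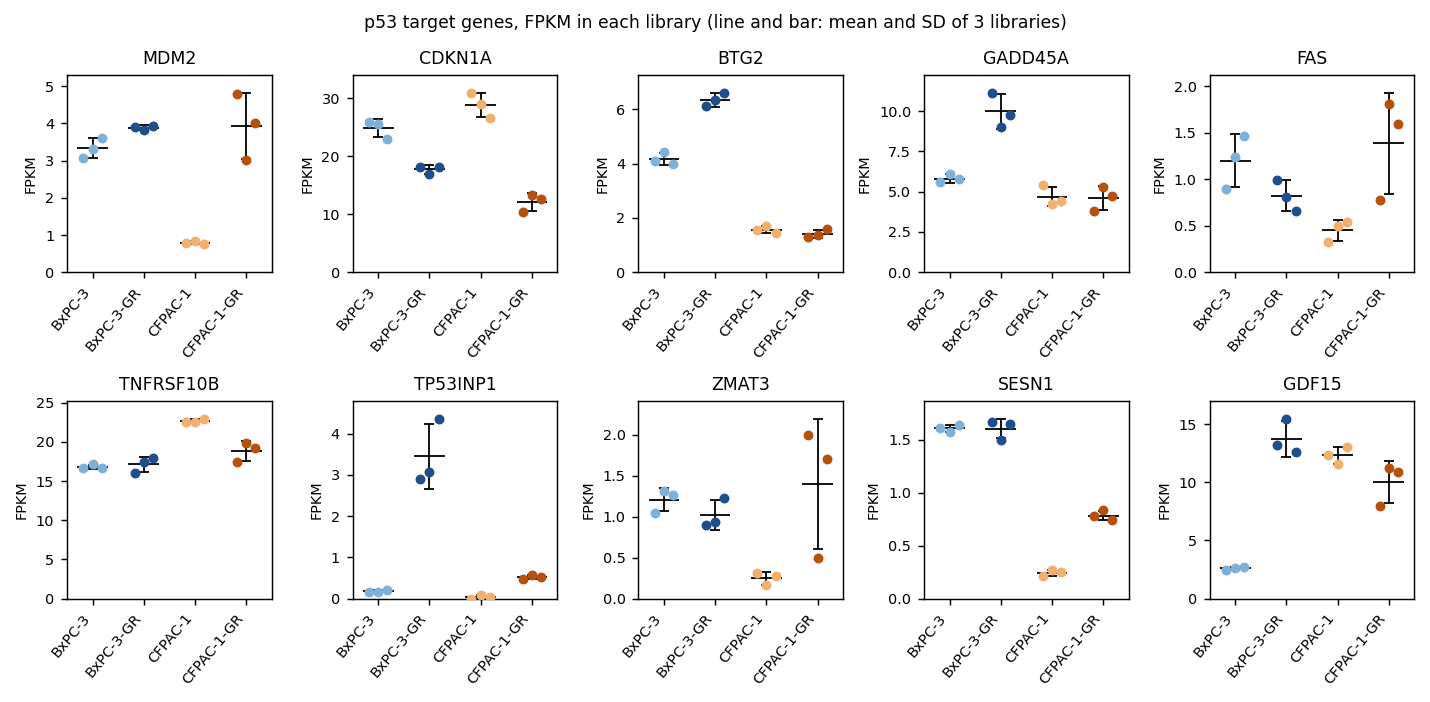
FPKM of the 10 p53 target genes (vertical axis, from 0, a separate scale per gene) in each library of the 4 cell lines (horizontal axis); points are libraries, and lines with bars are the mean and SD of 3 libraries. GDF15 and TP53INP1 are high in BxPC-3-GR over BxPC-3, MDM2 is lowest in CFPAC-1, and CDKN1A is lower in each resistant line than in its parental line.

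The first question was which p53 target genes differ between BxPC-3-GR and BxPC-3 cells. GDF15 and TP53INP1 were significantly upregulated, and CDKN1A, the best known p53 target, was lower by a smaller step. With limma on log2(FPKM + 1), a gene was called upregulated or downregulated at an adjusted p below 0.05 with an absolute log2 fold change above 1. By this rule 2 of the 10 genes were upregulated and 0 downregulated, while 7.76% of the 11710 genes tested were called, 4.14% upwards and 3.62% downwards. At an adjusted p below 0.05 alone, 5 of the 10 genes were higher and 1 was lower, beside 26.2% and 31.5% of all genes. The median log2 fold change was 0.10 over the 10 genes and -0.05 over all genes tested. With 3 libraries against 3, an exact two-sided permutation test of a single gene cannot go below a p of 0.1.

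MDM2, the feedback ligase, was measured at 3.90, 3.82 and 3.94 FPKM in BxPC-3-GR and at 3.08, 3.31 and 3.62 FPKM in BxPC-3. All 3 resistant libraries were above all parental ones, by a narrow margin. The log2 fold change was 0.17 ± 0.060 (SE; limma adjusted p = 0.047), and the adjusted p was 0.064 with the replicate number as a block and 0.068 with the GC and length correction.

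Of the arrest genes, CDKN1A, which encodes the cyclin-dependent kinase inhibitor p21, gave 18.2, 16.9 and 18.1 FPKM in BxPC-3-GR and 25.9, 25.6 and 23.0 FPKM in BxPC-3. The groups did not overlap and the resistant mean was 1.40-fold lower, a log2 fold change of -0.46 ± 0.065 (SE; limma adjusted p = 0.0014). BTG2, an antiproliferative cofactor, moved the other way, with 6.11, 6.33 and 6.62 FPKM in BxPC-3-GR against 4.10, 4.41 and 3.99 FPKM in BxPC-3. Its mean was 1.52-fold higher (log2 fold change 0.51 ± 0.056; limma adjusted p = 0.00051). GADD45A, a stress sensor of the growth arrest and DNA damage family, gave 11.2, 9.04 and 9.73 FPKM against 5.59, 6.10 and 5.76 FPKM. It was 1.71-fold higher (log2 fold change 0.68 ± 0.082; limma adjusted p = 0.00072), again without overlap. The 3 arrest genes thus did not share a direction, and none of them passed a log2 fold change of 1.

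Neither death receptor gene passed the test. FAS, the receptor of the FAS ligand, ranged from 0.662 to 0.990 FPKM in BxPC-3-GR and from 0.899 to 1.46 FPKM in BxPC-3, which overlapped. Its log2 fold change was -0.27 with a 95% interval of -0.55 to 0.01 (limma adjusted p = 0.092). TNFRSF10B, the TRAIL receptor DR5, ranged from 16.05 to 17.9 FPKM and from 16.7 to 17.2 FPKM. The 95% interval of its log2 fold change was -0.12 to 0.16.

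Both upregulated genes belong to the group of stress and metabolic adaptation. TP53INP1, a nuclear cofactor of p53 that also acts in autophagy, gave 2.90, 3.08 and 4.36 FPKM in BxPC-3-GR and 0.166, 0.164 and 0.199 FPKM in BxPC-3. About 378 to 615 fragments lay behind each resistant value and about 16 to 19 behind each parental value. The ratio of the means was 19.5, and the log2 fold change on the scale of FPKM + 1, which understates low genes, was 1.90 ± 0.12 (SE; limma adjusted p = 7.1e-05). The gene passed the minimum mean only through the resistant libraries. GDF15, a secreted stress cytokine of the TGF-beta superfamily, gave 13.2, 15.5 and 12.6 FPKM in BxPC-3-GR against 2.45, 2.64 and 2.73 FPKM in BxPC-3. The resistant mean was 5.27-fold higher (log2 fold change 2.03 ± 0.085; limma adjusted p = 1.5e-05), which lifted GDF15 from rank 6 to rank 3 among the 10 genes. ZMAT3, a zinc finger protein that binds RNA, had overlapping groups and a log2 fold change of -0.13 (95% interval -0.34 to 0.08). SESN1, a sestrin that restrains mTORC1 signalling, gave 1.67, 1.501 and 1.65 FPKM against 1.61, 1.58 and 1.64 FPKM, with an interval of -0.12 to 0.12 around -0.00.

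Over the 10 genes, 5 were higher and 1 lower without overlap between the groups and 4 overlapped, while 66.1% of all genes tested did not overlap. The GC and length correction left GDF15 (2.01) and TP53INP1 (1.94) as the 2 called genes, beside 7.68% of 11685 genes.

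The same question was put to CFPAC-1-GR and CFPAC-1 cells, where 6 of the 10 genes reached the mean of 1 FPKM that the test required. MDM2 was significantly upregulated and CDKN1A significantly downregulated in the deposited values, and neither call remained after the GC and length correction. The count of 2 called genes stood beside 32.2% of 12051 genes tested, 20.5% upwards and 11.7% downwards. After the correction 0 of the 6 were called, against 8.66% of 12030 genes. At an adjusted p below 0.05 alone, 1 of the 6 was higher and 2 were lower in the deposited values, beside 44.6% and 34.9% of all genes. The median log2 fold change of the 6 was -0.17 and that of all genes tested 0.13. Scaling moved the balance of all calls in this comparison, from 63.7% upwards as deposited to 43.3% by median-of-ratios and 36.0% by upper-quartile scaling, with medians of -0.11 and -0.21 over all genes. MDM2 stood at 1.26 and 1.17 and CDKN1A at -1.47 and -1.60 on those scales.

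MDM2 gave 4.79, 3.01 and 4.01 FPKM in CFPAC-1-GR and 0.786, 0.835 and 0.763 FPKM in CFPAC-1. Every resistant library was above every parental one, and the mean was 4.95-fold higher (log2 fold change 1.44 ± 0.13, SE; limma adjusted p = 5.7e-05). After the correction the log2 fold change was 0.24 with a 95% interval of 0.01 to 0.46 (limma adjusted p = 0.064). MDM2 passed the minimum mean only through the resistant libraries. Its longest transcript has a GC content of 41.9%.

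CDKN1A gave 10.4, 13.3 and 12.7 FPKM in CFPAC-1-GR and 30.99, 28.97 and 26.7 FPKM in CFPAC-1. The resistant mean was 2.38-fold lower (log2 fold change -1.19 ± 0.11, SE; limma adjusted p = 4.9e-05). The direction held after the correction at a log2 fold change of -0.49 (95% interval -0.69 to -0.29; limma adjusted p = 0.0026). CDKN1A was therefore lower in both resistant lines, in the deposited and in the corrected values. BTG2 (1.30, 1.36 and 1.58 FPKM against 1.56, 1.71 and 1.45 FPKM) and GADD45A (3.77, 5.28 and 4.76 FPKM against 5.39, 4.26 and 4.44 FPKM) had overlapping groups. Their 95% intervals were -0.28 to 0.09 for BTG2 and -0.33 to 0.27 for GADD45A on the log2 scale.

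TNFRSF10B gave 17.5, 19.9 and 19.2 FPKM in CFPAC-1-GR and 22.5, 22.6 and 23.0 FPKM in CFPAC-1, without overlap. The mean was 1.20-fold lower (log2 fold change -0.26 ± 0.071; limma adjusted p = 0.013), and -0.35 after the correction (limma adjusted p = 0.0025). FAS was too low for the main test, with 0.775, 1.80 and 1.59 FPKM against 0.321, 0.494 and 0.539 FPKM. All resistant values of FAS were above all parental values, and the ratio of the means was 3.08.

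GDF15, which was strongly upregulated in BxPC-3-GR, gave 7.97, 11.2 and 10.9 FPKM in CFPAC-1-GR and 12.4, 11.6 and 13.1 FPKM in CFPAC-1. The resistant values were all lower, but the change did not pass the test (log2 fold change -0.28, 95% interval -0.60 to 0.03; limma adjusted p = 0.080). After the correction it turned to 0.71 (95% interval 0.46 to 0.97; limma adjusted p = 0.0015), so its direction in this line depends on that step. GDF15 has the highest GC content of the 10 genes, 62.9%.

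TP53INP1 was near the lower end of detection in CFPAC-1, listed at 0 in 1 library and at 0.0808 and 0.0397 FPKM in the others, or about 0, 6 and 3 fragments. CFPAC-1-GR gave 0.483, 0.575 and 0.535 FPKM, or about 60, 56 and 47 fragments, and the ratio of the means was 13.2. SESN1 gave 0.777, 0.833 and 0.744 FPKM against 0.215, 0.267 and 0.252 FPKM, a ratio of means of 3.21. ZMAT3 gave 1.998, 0.495 and 1.70 FPKM against 0.306, 0.159 and 0.281 FPKM, a ratio of 5.61 with the widest spread of the 10 genes relative to the mean among the resistant libraries (coefficient of variation 57.0%). None of the 3 genes had overlapping groups.

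The 4 genes that were too low for the main test could be tested with a minimum mean of 0.1 FPKM, an alternative chosen after the values were seen. All 4 were then higher in CFPAC-1-GR at an adjusted p below 0.05, beside 39.9% of 21003 genes, with log2 fold changes of 0.69 for FAS (limma adjusted p = 0.013), 0.88 for ZMAT3 (0.022), 0.52 for SESN1 (0.00028) and 0.56 for TP53INP1 (0.00029). With a pseudocount of 0.1 in addition, 6 of the 10 genes were called, 5 upwards and 1 downwards, beside 39.6% of 21003 genes. With the correction at that minimum and a pseudocount of 1, 0 were called beside 7.37% of 20920 genes, and the log2 fold changes were -0.10 for FAS, -0.12 for ZMAT3, -0.07 for SESN1 and -0.30 for TP53INP1.

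Across the 10 genes, 5 were higher and 3 lower without overlap in CFPAC-1-GR and 2 overlapped, while 82.1% of all genes tested did not overlap. The 5 higher genes were those with the lowest GC content, between 39.1% for FAS and 43.4% for SESN1. The 3 lower genes were CDKN1A (58.1%), GDF15 (62.9%) and TNFRSF10B (50.0%). Over the 10 genes the Spearman correlation between the log2 ratio of means and GC content was -0.81 in CFPAC-1-GR against CFPAC-1 and 0.36 in BxPC-3-GR against BxPC-3. Over all genes tested it was -0.777 and 0.0388, between log2 fold change and GC content. These are descriptions across genes that share their libraries, and the part of GC content in each change was not tested beyond the correction.

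**Figure D2:**
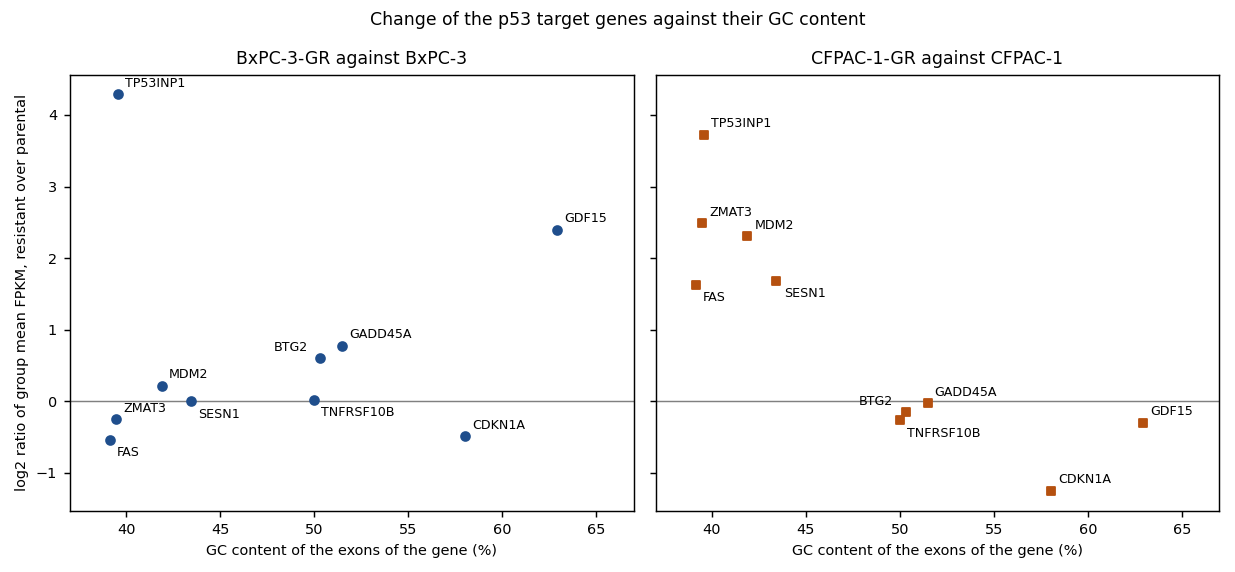
Log2 ratio of group mean FPKM (vertical axis) for the 10 p53 target genes, in BxPC-3-GR against BxPC-3 (left) and CFPAC-1-GR against CFPAC-1 (right). The horizontal axis, labelled as exons, is the GC content of the longest transcript of each gene in percent. In the CFPAC-1 lines the 5 genes with a GC content of at most 43.4% lie above 0 and the others below it (Spearman -0.81), which is not seen in the BxPC-3 lines (0.36).

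**Figure D3:**
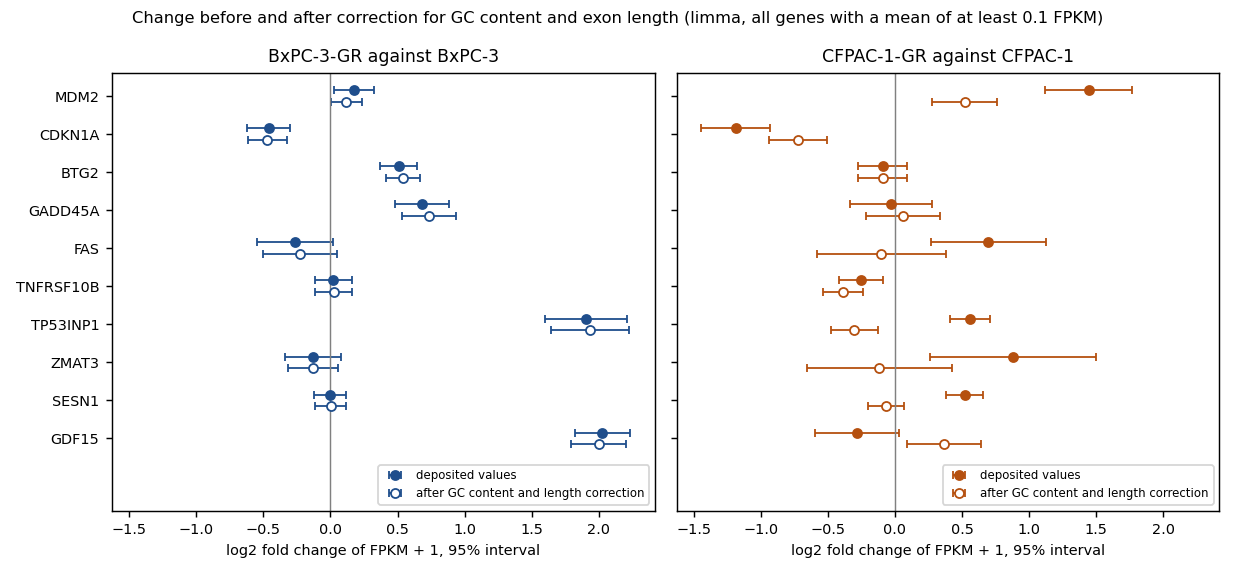
Log2 fold change of FPKM + 1 with its 95% interval (limma, minimum mean of 0.1 FPKM) for the 10 genes, resistant against parental, from deposited values (filled) and after the correction for GC content and exon length (open). In the BxPC-3 lines filled and open points lie close together; in the CFPAC-1 lines MDM2 moves from 1.44 to 0.52, CDKN1A from -1.19 to -0.72 and GDF15 from -0.28 to 0.37.

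Whether the response differed between the lines was tested by the interaction term of a fit of all 12 libraries, which is the log2 fold change in CFPAC-1-GR less that in BxPC-3-GR. Of the 8 genes tested, 3 were called (1 higher and 2 lower), beside 38% of 12210 genes (23.6% higher and 14.4% lower), and 5 of 10 were called without CFPAC-1 replicate 3. Of all calls 62.1% were positive, and 44.0% and 39.4% with median-of-ratios and upper-quartile scaling. MDM2 gave 1.27 ± 0.15 (SE; limma adjusted p = 1.9e-05), GDF15 -2.31 ± 0.16 (2.7e-07) and TP53INP1 -1.35 ± 0.14 (6.5e-06). TP53INP1 reached the minimum mean only through BxPC-3-GR, the line where it is high, and it was not tested when any 1 of the BxPC-3-GR libraries was left out. Its value is on the scale of FPKM + 1, which compresses the low levels of the CFPAC-1 lines, and the ratios of means, 19.5 for BxPC-3-GR against 13.2 for CFPAC-1-GR, lay closer together. After the correction GDF15 (-1.27) and TP53INP1 (-2.50) were still called, beside 18.4% of 12184 genes, and MDM2 was not (0.17, 95% interval -0.06 to 0.40). The step in CDKN1A was larger in CFPAC-1-GR by -0.73 (limma adjusted p = 0.00033), and this difference was -0.04 after the correction (95% interval -0.26 to 0.18). BTG2 (-0.60), GADD45A (-0.71) and TNFRSF10B (-0.28) also had a lower log2 fold change in CFPAC-1-GR at an adjusted p below 0.05, deposited and corrected alike. SESN1 was at 0.52 in the deposited values and -0.25 in the corrected ones, and it reached the minimum mean only through the BxPC-3 lines. At an adjusted p below 0.05 alone, 2 of the 8 were thus higher and 6 lower, beside 44.9% and 31.6% of all genes. With a pseudocount and minimum mean of 0.1, 6 of the 10 genes were called, beside 43.2% of 21194 genes.

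The parental lines did not overlap in any of the 10 genes, and 85.6% of all genes tested did not overlap between them either. CFPAC-1 was higher than BxPC-3 in 3 genes (GDF15, CDKN1A and TNFRSF10B) and lower in 7. Of the 6 genes tested 1 was called upwards and 2 downwards, beside 19.8% and 24.7% (together 44.5%) of 11842 genes: GDF15 was 4.73-fold higher (log2 fold change 1.89; limma adjusted p = 5.9e-07), MDM2 4.20-fold lower (-1.27; 2.7e-06) and BTG2 2.65-fold lower (-1.01; 8.4e-06). MDM2 reached the minimum mean only through BxPC-3, the line where it was higher. BTG2 was just past the threshold and stood at -0.97 without BxPC-3 replicate 2 or CFPAC-1 replicate 3. Of all calls in this comparison 44.6% were upwards, and 56.4% with upper-quartile scaling. Only BTG2 was called after the correction (-1.30), beside 26.6% of 11821 genes. GDF15 stood at 0.74 and MDM2 at -0.07 then, and CDKN1A turned from 0.21 to -0.66. With a minimum mean of 0.1 FPKM, SESN1 had log2 fold changes of -1.07 deposited and -0.55 corrected, each with an adjusted p below 0.05. With a pseudocount of 0.1 as well, 7 of the 10 genes were called, beside 51.5% of 20411 genes.

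The 4 lines were then ordered by mean level for each gene. For CDKN1A the order was CFPAC-1 (28.9 ± 2.14 FPKM), BxPC-3 (24.8 ± 1.56), BxPC-3-GR (17.7 ± 0.707) and CFPAC-1-GR (12.2 ± 1.51; SD, n = 3), and each neighbour was separated from the next. MDM2 was at 3.94 ± 0.895 FPKM in CFPAC-1-GR and 3.89 ± 0.0637 FPKM in BxPC-3-GR, which overlapped, followed by BxPC-3 at 3.33 ± 0.269 and CFPAC-1 at 0.795 ± 0.0365. GDF15 was at 13.8 ± 1.53 FPKM in BxPC-3-GR and 12.3 ± 0.729 FPKM in CFPAC-1, which overlapped, and CFPAC-1-GR (10.0 ± 1.80) stood close below, whereas BxPC-3 (2.61 ± 0.143) was far lower. BTG2 separated the lines of origin, with 6.35 ± 0.255 and 4.17 ± 0.217 FPKM in BxPC-3-GR and BxPC-3 and 1.57 ± 0.132 and 1.41 ± 0.148 FPKM in CFPAC-1 and CFPAC-1-GR, of which the last 2 overlapped. GADD45A followed the same order with 9.98, 5.82, 4.70 and 4.60 FPKM, the last 2 again overlapping. SESN1 overlapped in BxPC-3 and BxPC-3-GR (1.61 FPKM in each) and lower in CFPAC-1-GR (0.785) and CFPAC-1 (0.244), each separated. FAS and ZMAT3 overlapped between neighbours among CFPAC-1-GR (1.39 and 1.40 FPKM), BxPC-3 (1.20 and 1.21) and BxPC-3-GR (0.822 and 1.02), and both were lower without overlap in CFPAC-1 (0.451 and 0.249). TNFRSF10B stood apart in CFPAC-1 (22.7 FPKM) and overlapped between neighbours among the other lines (18.9 to 16.9 FPKM). TP53INP1 was separated at every step from BxPC-3-GR (3.45 FPKM) through CFPAC-1-GR (0.531) to BxPC-3 (0.176) and CFPAC-1. The 3 genes whose centred profile of log2(FPKM + 1) over the 4 lines lay nearest to that of CDKN1A, among 7671 genes with a range of at least 1, were RIPOR1, CHMP6 and ZYX, at root mean square distances of 0.059, 0.061 and 0.065.

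Genes that act on p53 or are related to it were read from a list of 14. In BxPC-3-GR 0 of the 11 tested were called, beside 7.76% of all genes, and 2 were higher and 3 lower at an adjusted p below 0.05, beside 26.2% and 31.5%. In CFPAC-1-GR 4 of 11 were called upwards and 1 downwards, beside 20.5% and 11.7% of all genes. The related factor gene TP63 differed widely between the lines of origin, at 14.9 and 13.3 FPKM in BxPC-3 and BxPC-3-GR and at 0.0719 and 0.13 FPKM in CFPAC-1 and CFPAC-1-GR. CDKN2A, whose p14ARF product inhibits MDM2, was at 0.0762 and 0.0816 FPKM in BxPC-3 and BxPC-3-GR and at 48.9 and 20.7 FPKM in CFPAC-1 and CFPAC-1-GR. TP73 was at 0.384 and 0.127 FPKM in BxPC-3 and BxPC-3-GR and at 1.16 and 1.41 FPKM in CFPAC-1 and CFPAC-1-GR. MDM4, the partner of MDM2 in holding p53 inactive, stayed below a mean of 1 FPKM in every line.

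In CFPAC-1-GR the kinase genes ATR (log2 fold change 1.87) and HIPK2 (1.17), the deubiquitinase gene USP7 (1.14) and TP53BP1 (1.0003), which codes for a p53-binding repair protein, were upregulated, and CDKN2A (-1.20) was downregulated. After the correction these stood at 0.53, 0.71, 0.49, 0.22 and -0.41. ATR reached the minimum mean only through the CFPAC-1-GR libraries. TP53BP1 lay on the threshold and was between 0.96 and 0.99 without CFPAC-1 replicate 1 or 3 or CFPAC-1-GR replicate 1 or 3. The acetyltransferase genes EP300 (0.90) and KAT5 (-0.58) and the checkpoint kinase gene CHEK1 (0.67) passed an adjusted p of 0.05 only, and CHEK2 (0.06) did not. KAT5 turned to 0.10 and CHEK1 to -0.39 after the correction. ATM was too low for the test in CFPAC-1, at 0.11 FPKM against 1.55 FPKM in CFPAC-1-GR. In BxPC-3-GR the kinase genes ATR (-0.68) and CHEK1 (-0.24) and the USP7 gene (-0.77) were lower, and EP300 (0.23) and CHEK2 (0.25) were higher, at an adjusted p below 0.05. TP63 (-0.15), ATM (-0.05), KAT5 (0.01), HIPK2 (0.03) and TP53BP1 (0.14) did not pass.

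Other p53 targets were read from a list of 43. In BxPC-3-GR, 37 were tested, 3 were upregulated and 3 downregulated, beside 4.14% and 3.62% of all genes, and the median log2 fold change was -0.06 against -0.05 over all genes. TRIM22, an interferon-inducible ubiquitin ligase, gave 10.4, 10.6 and 12.5 FPKM against 0.457, 0.463 and 0.671 FPKM (log2 fold change 2.99; limma adjusted p = 5.1e-06). DDIT4, an inhibitor of mTORC1, was 3.27-fold higher (1.66), and SESN2, the sestrin related to SESN1, was 3.55-fold higher (1.56), while SESN1 itself was at -0.00. SULF2, an extracellular sulfatase (-2.93), and AEN, an apoptosis-enhancing nuclease (-1.33), were among the downregulated genes. TRIM22 reached the minimum mean only through BxPC-3-GR, and SULF2 only through BxPC-3.

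In CFPAC-1-GR 35 of the 43 were tested, 7 were upregulated and 3 downregulated, beside 20.5% and 11.7% of all genes, and the median log2 fold change was 0.22 against 0.13 over all genes. The upregulated genes included KITLG, the KIT ligand (2.06), ASCC3, a helicase of the DNA alkylation repair complex (1.85), TRIM22 (1.70), the cyclin gene CCNG1 (1.26) and RRM2B, the p53-inducible subunit of ribonucleotide reductase (1.23). The cytokine gene LIF (-1.26), BAX, a pore-forming effector of apoptosis (-1.14), and the kinase gene PLK3 (-1.01, and between -0.99 and -0.96 without CFPAC-1 replicate 3 or CFPAC-1-GR replicate 1 or 3) were downregulated. After the correction none of these 8 passed a log2 fold change of 1, with values of 0.78 for KITLG, 0.52 for ASCC3, 0.70 for TRIM22, 0.20 for CCNG1, -0.04 for RRM2B, -0.71 for LIF, -0.35 for BAX and -0.18 for PLK3. TRIM22 was the one gene of the list called upwards in both lines. KITLG, ASCC3, RRM2B and TRIM22 passed the minimum mean only through the CFPAC-1-GR libraries. The paper lists TRIM22 among the top upregulated genes of BxPC-3-GR, together with RRM1, STIM1, TRIM21, TRIM68, TRIM34 and TRIM5. Whether TRIM22 rose as a p53 target was not tested. SESN2 gave 4.39, 4.55 and 4.10 FPKM in CFPAC-1-GR and 9.05, 9.67 and 9.69 FPKM in CFPAC-1. In the deposited values this was the opposite direction to the BxPC-3 lines (log2 fold change -0.97, limma adjusted p = 1.7e-05). Its GC content is high (59.5%) and its corrected value is not reported here, so the direction is given for the deposited values only.

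**Figure D4:**
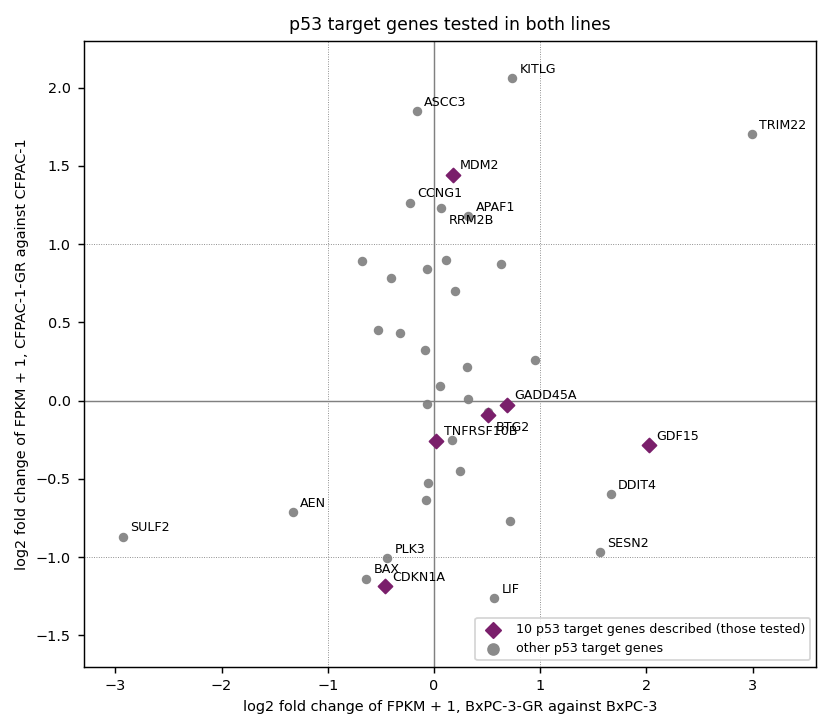
Log2 fold change of FPKM + 1 in BxPC-3-GR against BxPC-3 (horizontal axis) and in CFPAC-1-GR against CFPAC-1 (vertical axis) for 39 p53 target genes tested in both lines; diamonds are 6 of the 10 genes described, circles other targets, and dotted lines mark 1 and -1. TRIM22 is the gene past 1 in both lines, whereas GDF15, SESN2 and DDIT4 are past 1 in the BxPC-3 lines alone and MDM2 in the CFPAC-1 lines alone.

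The remaining lists followed the genes around the 10 targets. Their counts stand beside 4.14% of all genes called upwards and 3.62% downwards in BxPC-3-GR, and 20.5% and 11.7% in CFPAC-1-GR. Of 9 tested paralogs in BxPC-3-GR, BTG1 (log2 fold change 1.12) and SESN2 were upregulated, and of 9 in CFPAC-1-GR GADD45B was downregulated (-1.15, and -0.29 after the correction). Of 8 tested genes of the death receptor pathway, 0 were called in BxPC-3-GR, where 1 was higher and 2 were lower at an adjusted p below 0.05, beside 26.2% and 31.5% of all genes. In CFPAC-1-GR the TRAIL gene TNFSF10 (1.34) was upregulated and the adaptor gene FADD (-1.14) was downregulated, with 0.36 and -0.31 after the correction. Among 12 partners of p21 and GADD45A, the cyclin gene CCNE1 was downregulated in BxPC-3-GR (-1.41), where 8 of the 12 were lower at an adjusted p below 0.05, beside 31.5% of all genes. Of 11 tested in CFPAC-1-GR the cyclin-dependent kinase genes CDK6 (2.70) and CDK1 (1.31) and the cyclin gene CCNA2 (1.19) were upregulated, and of these CDK6 alone was above 1 after the correction (1.33). Of the other factors that act on the 10 genes, EGR1 was downregulated in BxPC-3-GR (-1.07; -0.98 without BxPC-3 replicate 2), and SP1 (1.18) and FOXO3 (1.13) were upregulated in CFPAC-1-GR (0.40 and 0.84 after the correction).

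Exons of CDKN1A, MDM2, FAS, TNFRSF10B and SESN1 overlap exons of other genes on the opposite strand in GENCODE 29, as do those of CDKN2A and DDIT4. On the same strand, exons of MDM2 overlap the processed pseudogene AC025423.2 and those of TRIM22 overlap OR56B1, which counting by strand would not separate. Other named genes overlap neighbours too, among them TP53BP1, ATR, KAT5 and FADD on the opposite strand and BTG1, CHEK1 and EP300 on the same strand. Whether counting used strand is not given in the sources used here, so a part of these FPKM values may come from the neighbour. In cultures measured in bulk, a smaller share of expressing cells and less RNA per cell cannot be told apart.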

How the data were processed

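Human cell lines were profiled by RNA sequencing of total RNA. The authors deposited one table of FPKM values per gene and library, made against human GRCh38 release 91, and the submitters' processing notes name Trimmomatic 0.27, FastQC 0.10.1, TopHat2 2.0.8 and the builds hg19 and GRCh38 without their roles. The counting program is not given in the sources used here. Since FPKM are no counts, limma 3.58.1 (R 4.3.3) was fitted to log2(FPKM + 1) over the genes whose mean in the fitted libraries reached 1 FPKM, with Benjamini-Hochberg adjustment, in place of the study's test of counts and with its thresholds (adjusted p below 0.05, absolute log2 fold change above 1). The fit was also run on simulated data, with 11725 genes on BxPC-3 libraries and 12086 on CFPAC-1 libraries. It recovered 100% of 200 changed genes and made 0 false calls in each. The size given to those 200 genes is not reported here, so recovery near a log2 fold change of 1 is not shown. How the fit behaves with the base composition of the CFPAC-1 libraries was not tested in that run.

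GC content (of the longest transcript of a gene) and exon length came from GENCODE 29 and were removed from each library by natural splines of 5 degrees of freedom. Of low values 54.9% to 66.6% per library were whole fragments within 0.05, so fragment numbers are approximate and no count test was run. The 10 genes and all lists were chosen with earlier results of these data known. Named beyond the 10 were every gene of the p53 regulator list, from each other list the called genes by size (up to 6 per direction and line), and the 3 genes most like CDKN1A. The alternatives were a pseudocount of 0.1, no filter, 1 fit of all 12 libraries, the replicate number as a block, the correction, 2 scalings, protein-coding genes alone and leaving out each library. Those with a minimum mean of 0.1 FPKM were chosen after seeing the data. The replicate numbers did not pair the libraries. Some genes of the lists are counted but not reported here by name.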

Additional observations from a re-analysis of the deposited data

Results flagged for a closer look

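MDM2, GDF15 and TP53INP1 passed the interaction test between the 2 lines in limma over all 12 libraries, with the log2 fold change in CFPAC-1-GR less that in BxPC-3-GR as the value. MDM2 gave 1.27, as it was upregulated in CFPAC-1-GR (1.44) with 0.17 in BxPC-3-GR. GDF15 gave -2.31 from a log2 fold change of 2.03 in BxPC-3-GR against -0.28 in CFPAC-1-GR. TP53INP1 gave -1.35 on the scale of FPKM + 1, but it passed the minimum mean of 1 FPKM only through BxPC-3-GR, and its ratios of means were 19.5 for BxPC-3-GR against 13.2 for CFPAC-1-GR. Corrected for exon length and GC content, these differences were 0.17, -1.27 and -2.50. Groups of 3 libraries were too small for a test of single outlying libraries.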

How the results depend on the processing

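The count of 2 called genes in BxPC-3-GR was the same under every alternative run, and without each library in turn it stayed at 2. In CFPAC-1-GR the count of 2 fell to 0 with the GC content and length correction (also with the replicate block, and with a minimum mean of 0.1 FPKM at either pseudocount) and rose to 6 with a pseudocount and minimum mean of 0.1; leaving out libraries gave 2. Between the parental lines the 3 called genes became 1 with the correction (also with the block) and 7 with a pseudocount and minimum mean of 0.1, and ranged from 2 to 4 without single libraries. The 3 genes whose response differed became 5 with median-of-ratios scaling and 6 with a pseudocount and minimum mean of 0.1, and ranged from 2 to 5 without single libraries, with 5 when CFPAC-1 replicate 3 was left out.

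Signs turned as follows for genes with a main test, where the main or the alternative value had an adjusted p below 0.05. With the correction, GDF15 in CFPAC-1-GR was at 0.71 (0.71 with the block, 0.37 at the minimum of 0.1 FPKM and 0.53 with a pseudocount of 0.1 as well), CDKN1A between parental lines at -0.66 (-0.66, -0.44 and -0.86 likewise) and the difference in SESN1 at -0.25 (-0.25 and -0.056). In CFPAC-1-GR the corrected values also turned for RRM2B (-0.038 with and without the block), KAT5 (0.10 likewise), CHEK1 (-0.39 likewise, -0.13 and -0.38 at the minimum of 0.1 FPKM) and CDK1 (-0.041 at a pseudocount and minimum of 0.1), and CHEK2 was at -0.21 with upper-quartile scaling. FAS, ZMAT3, SESN1 and TP53INP1 had no main test in CFPAC-1-GR. At the minimum of 0.1 FPKM and a pseudocount of 1, they turned from higher to lower there with the correction. The cause was not tested.

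Deviations of same-numbered libraries correlated at 0.096, -0.052 and 0.058 in the BxPC-3 lines and 0.00014, -0.14 and -0.067 in the CFPAC-1 lines, so the numbers are not treated as pairs. The replicate block gave 2, 2, 3 and 3 called genes in the 4 comparisons, as without it. With the block the adjusted p of MDM2 in BxPC-3-GR rose from 0.047 to 0.064 and that of GADD45A between the parental lines from 0.026 to 0.055, and not every library correlated best with its own number. Values under 0.5 FPKM rest on few fragments, and the depth limits what can be said of TP53INP1 in CFPAC-1.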
